A study of Mus musculus with 9 samples.

Results

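Neonatal sensory neuron samples that contain proprioceptors were compared, gene by gene, with samples of Runx3 mutant neurons that lack them. The authors joined 2 groups of 3 samples for this comparison and set them against the 3 mutant samples. A gene was included when its deposited RPKM (reads per kilobase of transcript, scaled to the library's total) was 1 or more in the joined groups or in the mutants. This rule kept 13016 of the 23038 genes in the table. Of these, 11654 passed in both columns, 589 through the joined column alone and 773 through the mutant column alone.

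The first joined group was TrkC-GFP neurons, here called the TrkC group, from mice with a bacterial artificial chromosome (BAC) that places GFP under the control of Ntrk3. The labels give these cells as proprioceptors with slowly adapting low-threshold mechanoreceptors. The second joined group was Rx3+/+;PV:tdT neurons, here the wild-type PV group, marked by tdTomato after recombination by Cre under Pvalb control in animals wild-type for Runx3. It is given as proprioceptors with rapidly adapting low-threshold mechanoreceptors (RA-LTMRs). The third group, Rx3-/-;PV:tdT, here the mutant PV group, carried the same Cre and reporter and no intact Runx3 allele, and is given as RA-LTMRs. The genotype labels name the reporter Ai14 and the design text names it Ai9. Every sample came from dorsal root ganglia of pups of a mixed C57/Sv129 strain, sorted by fluorescence, with both sexes used. TrkC samples were taken at postnatal day 6, 2 and 1 from 4, 2 and 4 animals. Wild-type PV samples were taken at day 6, 4 and 3 from 4, 3 and 3 animals, and mutant samples at day 3, 0 and 0 from 1, 1 and 4 animals. The mutants were younger on the whole, so that age and Runx3 genotype cannot be told apart. The TrkC group also differed from the mutants in its reporter line.

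Proprioceptors are the sensory neurons that report muscle length and tension to the spinal cord. They depend on neurotrophin-3 and its receptor TrkC, and Runx3 is a transcription factor that keeps TrkC on and TrkB off in them. RA-LTMRs innervate touch end organs of the skin, and the transcription factor Maf and the receptors Ret and TrkB are known to mark them. Both kinds of neuron express parvalbumin, which is why the Cre line labels both.

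The deposited group RPKM values could be resolved into whole reads per library for 22900 genes, including 12883 of the 13016 compared here. Libraries are numbered by depth within a group, since nothing ties them to a replicate number. Counted reads came to 12225112, 10536972 and 7779765 in TrkC libraries 1 to 3, 13737224, 12150764 and 11567681 in wild-type PV libraries, and 12847709, 12171315 and 4510352 in mutant libraries. Floors drawn from reads cover counting error only, because RNA was amplified and no molecular identifiers were used. The SE of a limma value comes from the spread between libraries. Across genes, log2(RPKM + 1) correlated at r of 0.956 to 0.990 among the 6 joined libraries, 0.949 to 0.957 among the mutants and 0.893 to 0.927 between joined and mutant libraries; genes are not independent replicates. Sex-linked reads went against a label. Xist, the X-inactivation RNA, had 2964, 4519 and 0 reads in mutant libraries 1 to 3, and the Y-linked gene Ddx3y had 496, 338 and 238. Mutant libraries 1 and 2 thus held RNA of both sexes, although only 1 of the mutant samples is labelled as more than 1 animal. Counts of called genes in a list are given below with these libraries and, by limma on the recovered reads, also without both. The fit without both keeps only the shallowest mutant library and called far fewer of all genes. A smaller count for a list in that fit therefore does not by itself tie the list to mutant libraries 1 and 2. Xist was also nearly absent from TrkC library 3, at 7 reads, against 2291 and 783 in the other TrkC libraries.

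Runx3 transcripts were present in all 9 libraries. Runx3 (chromosome 4, 135120645 to 135177990, GRCm38.p6) ranged from 26.2 to 35.0 RPKM in the joined libraries, with a median of 33.1, and stood at 12.5, 16.6 and 11.3 RPKM in the mutants. The groups did not overlap. The authors' deposited table gives a log2 fold change of 1.24 (edgeR adjusted p = 1.9e-10). Reads over the whole gene are summed, so these values do not check the deleted part of the allele. Ntrk3, which encodes TrkC, was at 150, 142 and 130 RPKM in the TrkC libraries, 85.4, 89.2 and 70.2 in the wild-type PV libraries, and 17.4, 16.4 and 42.3 in the mutants. Pvalb was at 312, 401 and 346 RPKM, 183, 228 and 190 RPKM, and 93.4, 70.0 and 37.1 RPKM in the same order. Both genes followed the same order of groups, with TrkC above wild-type PV and wild-type PV above mutant PV and no overlap between neighbouring groups. In the authors' deposited table, Ntrk3 and Pvalb also differed between wild-type PV and TrkC, by -0.79 (adjusted p = 3.6e-05) and -0.82 (adjusted p = 5.4e-05) on the log2 scale. In sorted bulk samples, fewer cells of a type and less RNA per cell cannot be told apart.

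A gene was called when the adjusted p in the authors' deposited table was under 0.05. Of the 13016 genes, 1718 (13.2%) were called higher in the joined groups and 1492 (11.5%) were called lower, so that 24.7% were called in either direction. Over the whole table of 23038 genes the shares were 8.82% and 7.96%. The median log2 RPKM ratio over all 13016 was 0.00054. With at least a 2-fold change required, 829 genes (6.37%) were higher and 847 (6.51%) lower. Changes of 4-fold or more were reached by 311 genes called higher and 313 called lower. Past 16-fold the counts were 95 and 39. Libraries separated at different rates in each direction. All 6 joined libraries exceeded all 3 mutants for 1517 of the 1712 called-higher genes with recovered reads, and all 6 were below all 3 for 1117 of the 1485 called-lower genes. Over all 12883 genes with recovered reads, 15.7% had every joined library above every mutant and 10.8% had every joined library below. As an alternative test on the recovered reads, limma-voom called 2127 genes (17.1%) higher and 1785 (14.4%) lower at an adjusted p under 0.05. With mutant libraries 1 and 2 both left out, and mutant library 3 alone assumed to vary like the other groups, it called 644 higher and 802 lower.

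**Figure D1:**
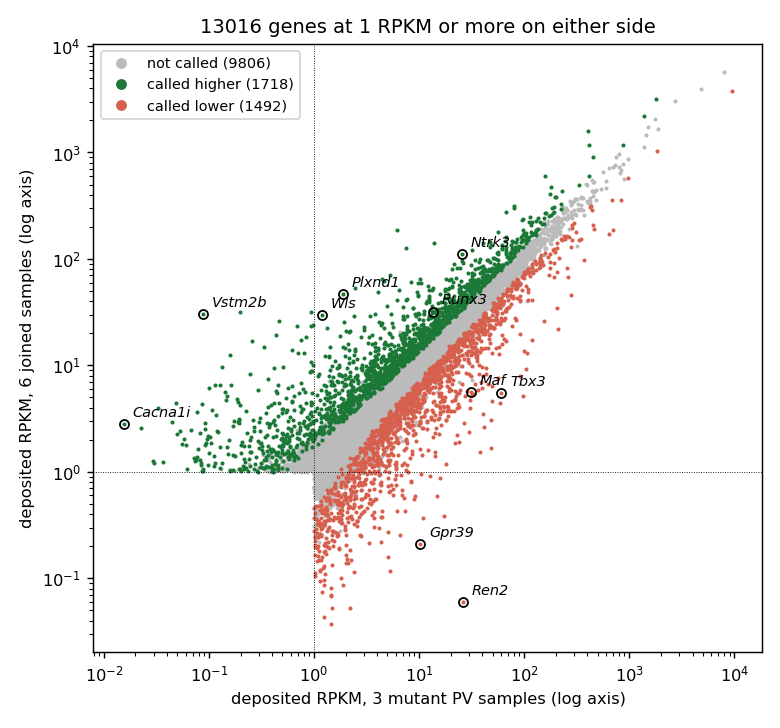
Deposited RPKM of each of the 13016 genes in the 6 joined samples (vertical, log axis) and the 3 mutant PV samples (horizontal, log axis), coloured by the call in the authors' deposited table; dotted lines mark 1 RPKM and circles mark named genes. The deposited values include 1 read added per library, so that Vstm2b and Ren2, without reads on one side, sit above 0 there.

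On the higher side, the smallest deposited p values belonged to Wls and Plxnd1. Wls, the sorting receptor needed to secrete Wnt proteins, ranged from 25.0 to 33.7 RPKM in the 6 joined libraries with a median of 31.4, and stood at 0.926, 1.43 and 1.11 RPKM in the mutants. Plxnd1, a semaphorin receptor, ranged from 38.9 to 55.9 RPKM with a median of 47.4, against 2.17, 2.18 and 1.22 RPKM. Neither gene had a joined library near a mutant one. The authors' deposited table gives adjusted p = 8.3e-85 for Wls and 5.9e-82 for Plxnd1, and limma gave log2 differences of 4.69 ± 0.25 and 4.56 ± 0.23 (SE).

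Vstm2b, an immunoglobulin-domain membrane protein gene, and Cacna1i, the T-type calcium channel Cav3.3, were close to an on and off pattern. Vstm2b was at 25.2, 35.8 and 27.7 RPKM in TrkC libraries and 23.2, 34.4 and 33.9 RPKM in wild-type PV libraries. It had no read in any mutant library and was at least 427-fold higher in the joined groups, against a floor of 3 reads over the 3 mutant libraries. Cacna1i ranged from 2.62 to 3.05 RPKM in the joined libraries and stood at 0.00788, 0 and 0 RPKM in the mutants. Its whole joined range spanned under 1 RPKM, and its only mutant signal came from library 1. With mutant libraries 1 and 2 left out, limma still called Vstm2b (adjusted p = 0.040) and Cacna1i (adjusted p = 0.0068). Kcnip2, the auxiliary subunit KChIP2 of A-type potassium channels, showed a like contrast, with 28.3 to 36.6 RPKM in the joined libraries against 0.101, 0 and 0 RPKM.

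The rest of the 12 genes with the smallest p on this side had like contrasts. The heparan sulfate enzymes Ndst4 and Hs3st2 ranged from 48.5 to 75.1 and from 46.2 to 61.9 RPKM in the joined libraries, and no mutant library passed 5.11 and 3.57 RPKM. Slit2, the secreted ligand of Robo receptors, ranged from 44.7 to 55.3 RPKM against 3.09, 4.16 and 4.97. Grm3, a metabotropic glutamate receptor, ranged from 17.2 to 28.8 RPKM against 0.836, 0.860 and 1.13. Lcp1, the actin-bundling protein L-plastin, ranged from 88.7 to 158 RPKM against 5.55, 7.32 and 9.70. The most abundant of the 12 was Fam70a, a transmembrane protein gene, at 165 to 218 RPKM against 3.84, 9.84 and 4.55. Gprc5b, an orphan G-protein-coupled receptor, completed the set at 18.2 to 33.7 RPKM against at most 0.637 RPKM.

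Among the 12 genes with the smallest p on the lower side, 3 encode transcription factors, Tbx3, Tbx2 and Maf. Tbx3 and Tbx2, T-box repressors, stood at 69.4, 60.9 and 50.3 RPKM and at 13.4, 9.99 and 8.22 RPKM in the mutants. The joined libraries ranged from 3.23 to 8.09 RPKM for Tbx3 and from 1.04 to 1.84 for Tbx2. Maf was at 30.8, 25.8 and 36.3 RPKM in the mutants and at 4.63 to 7.26 RPKM, median 5.44, in the joined libraries. Tle4, a Groucho co-repressor, was at 30.4, 48.4 and 41.3 RPKM in the mutants and at most 8.14 in the joined libraries. The authors' deposited table gives log2 fold changes of -3.46 for Tbx3 (adjusted p = 2.75e-46), -2.88 for Tbx2 (adjusted p = 1.6e-29), -2.47 for Maf (adjusted p = 1.4e-40) and -2.69 for Tle4 (adjusted p = 3.3e-42). Shc4, an adaptor of receptor tyrosine kinases, had the smallest p on this side, at 23.6, 24.1 and 24.4 RPKM against 3.26 to 4.94. Spry4, an inhibitor of receptor tyrosine kinase signalling, stood at 26.4, 28.9 and 27.0 RPKM against 3.28 to 7.46.

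Gpr39, a zinc-sensing receptor, showed the widest ratio of this set, with 6.11, 17.4 and 7.01 RPKM in the mutants. It ranged from 0 to 0.0913 RPKM in the TrkC libraries and from 0.214 to 0.460 RPKM in the wild-type PV libraries. Plxna4 at 86.9, 114 and 98.9 RPKM, the integrin gene Itga3 at 27.0, 28.2 and 35.4 RPKM and the receptor phosphatase gene Ptpro at 36.3, 41.5 and 30.9 RPKM were all above their highest joined libraries of 18.1, 7.17 and 7.50 RPKM. Trp53i11 and Osgin2 made up the rest, with no joined library above 3.37 and 4.56 RPKM and no mutant below 24.9 and 14.1 RPKM. All 24 genes kept the groups apart library by library. They were chosen by p in these same libraries, so this is not separate evidence.

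**Figure D2:**
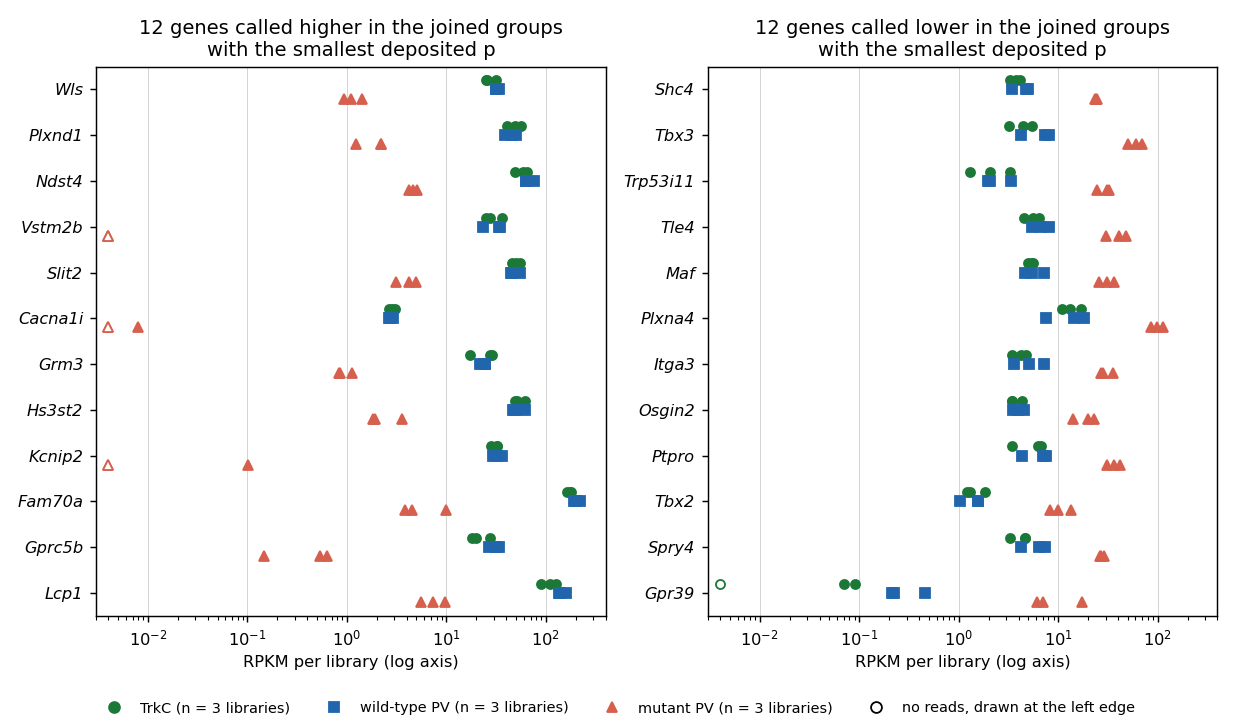
RPKM in each of the 9 libraries (log axis) for the 12 genes called higher (left) and the 12 called lower (right) with the smallest deposited p; each symbol is 1 library and open symbols mark libraries without reads. In every row the 3 mutant triangles lie on one side of all 6 joined symbols, which the choice by p in the same libraries favours.

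The promoters of the top genes and of Runx3 were read from RefSeq to show the letters of the Runx core TGTGGT, or its reverse complement ACCACA. Of the 27 genes named so far as the top 24, Runx3, Ntrk3 and Pvalb, 19 had a promoter in the RefSeq table (250 bases before to 50 after a start, GRCm38.p6), and 3 of them held the core. The Runx3 promoter at chr4:135120395-135120694, plus strand, held a pair of cores close together, shown in capitals. The promoter of Gpr39 at chr1:125676746-125677045, plus strand, held 1, and that of Vstm2b at chr7:40899028-40899327, plus strand, held none.
Runx3: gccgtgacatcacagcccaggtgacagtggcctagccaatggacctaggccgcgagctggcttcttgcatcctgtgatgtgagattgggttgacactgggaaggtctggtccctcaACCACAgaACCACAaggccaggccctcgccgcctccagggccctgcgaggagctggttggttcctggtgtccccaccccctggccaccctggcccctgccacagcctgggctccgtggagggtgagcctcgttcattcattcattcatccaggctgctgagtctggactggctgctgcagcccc
Gpr39: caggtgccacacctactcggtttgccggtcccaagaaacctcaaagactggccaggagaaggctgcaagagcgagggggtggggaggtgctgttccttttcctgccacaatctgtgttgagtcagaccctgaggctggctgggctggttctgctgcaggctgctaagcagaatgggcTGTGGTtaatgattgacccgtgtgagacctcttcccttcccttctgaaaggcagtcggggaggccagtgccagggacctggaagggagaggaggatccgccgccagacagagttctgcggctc
Vstm2b: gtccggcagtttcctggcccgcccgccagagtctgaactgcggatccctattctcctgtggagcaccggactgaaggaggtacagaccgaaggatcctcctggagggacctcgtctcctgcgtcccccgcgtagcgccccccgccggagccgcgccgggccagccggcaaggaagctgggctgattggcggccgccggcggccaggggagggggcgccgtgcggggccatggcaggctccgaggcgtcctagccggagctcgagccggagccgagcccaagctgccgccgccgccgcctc

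Over all genes the core was no more common before genes called higher. It was present in 13.6% of the 1346 called-higher genes with a promoter in the table, 17.0% of the 1150 called-lower genes and 14.1% of the 7359 uncalled ones. The share was 18.9% over all 27025 genes with a promoter. Among genes past 4-fold, 15.6% of those called higher and 18.3% of those called lower held it. The Maf element core TGCTGAC, on either strand, was in 3.86% of called-higher, 5.30% of called-lower and 4.46% of uncalled genes. A match of letters is not a binding site, and no match says only that these letters are not in this window.

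Proprioceptor markers were mostly higher in the joined groups. Counts for a gene list cover its genes at 1 RPKM or more, and a summed level covers all its genes with recovered reads. Of 14 proprioceptor markers at 1 RPKM or more, from 16 listed, 11 (78.6%) were called higher and 1 (7.14%) lower. The shares over all genes were 13.2% and 11.5%, and the list's median log2 RPKM ratio was 2.09. The list was chosen with earlier results of these data known, and the labels place proprioceptors in the joined groups only. The list's summed level was 1261 to 1514 RPKM in the joined libraries and 815, 558 and 822 RPKM in the mutants. Esrrg, an orphan nuclear receptor, was at 55.8 to 88.5 RPKM against 5.61, 3.36 and 6.72. Whrn, the scaffold protein whirlin, was at 4.77 to 8.85 RPKM against 0.0796, 0.185 and 0, and the protocadherin gene Pcdh8 at 1.47 to 2.88 RPKM against 0, 0 and 0.0554. Chad, a matrix protein gene, had no mutant reads and was at least 57.8-fold higher. Etv1, the ETS factor of proprioceptors, differed less, at 365 to 560 RPKM against 236, 154 and 151. Pou4f3, a POU factor, was the marker called lower, by -1.01 (log2) in the authors' deposited table (adjusted p = 0.0084), and lost its call by limma without mutant library 2 (adjusted p = 0.070). Limma also called 11 of the 14 higher and 1 lower with all libraries, 10 or 11 higher with any library left out, and 5 higher without mutant libraries 1 and 2.

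The RA-LTMR markers, also listed with earlier results of these data known, went the other way. Of 12, 10 were called lower and 1 higher, with a median of -3.04, and limma called 10 lower with any library left out and 9 without mutant libraries 1 and 2. By limma, the number called higher rose from 1 to 2 without mutant library 1. In the authors' deposited table the shares were 83.3% lower and 8.33% higher, beside 11.5% and 13.2% over all genes. Ret, the GDNF family signalling receptor, was at 206, 179 and 248 RPKM in the mutants. It was at 41.5, 17.5 and 38.8 RPKM in the wild-type PV libraries and at 11.5, 15.7 and 6.83 RPKM in the TrkC libraries. Ntrk2, which encodes TrkB, was at 55.9, 74.5 and 45.8 RPKM in the mutants and at 1.36 to 8.25 in the joined libraries. Ntng1 (netrin-G1) was at 50.3, 49.8 and 46.4 RPKM against 0.453 to 6.96, and the calcium channel gene Cacna1h at 26.6, 30.9 and 22.9 RPKM against 1.12 to 4.52. Mafa, a large Maf factor, was read in no TrkC library and reached 4.04, 4.41 and 6.36 RPKM in the mutants. The marker called higher was Cntnap2, an adhesion protein gene, at 70.1 to 94.4 RPKM against 35.1, 37.9 and 44.6.

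**Figure D3:**
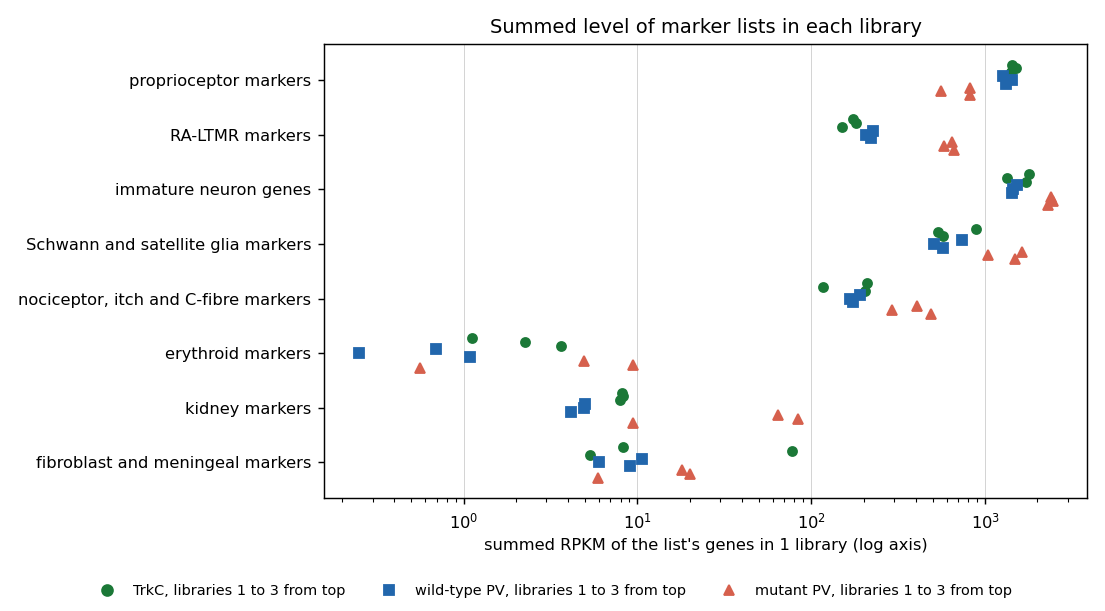
Summed RPKM of marker lists in each library (log axis); each symbol is 1 library, and libraries 1 to 3 of a group run from top to bottom. Proprioceptor markers are higher in all 6 joined libraries and RA-LTMR markers in all 3 mutants, while kidney markers are raised in mutant libraries 1 and 2.

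Kidney, erythroid and endothelial markers had their highest sums in mutant libraries 1 and 2. Over all genes, 11.5% were called lower. Kidney markers were called lower for 7 of 9 genes (77.8%). Their summed level was 4.13 to 8.28 RPKM in the joined libraries against 64.2, 83.9 and 9.41 RPKM in the mutants. Ren2, a renin gene with a near-identical copy, had 32.5, 45.5 and 0 RPKM in the mutants and no joined read, and was at least 1144-fold lower in the joined groups. Limma called Ren2 with all libraries (adjusted p = 0.038), but not in 6 of the 9 fits that left out 1 library. Umod, made by the kidney tubule, had 1.95, 2.23 and 0 RPKM and no joined read. Of the 16 called-lower genes without a joined read, 11 were read in mutant libraries 1 and 2 only, among them Kap and Miox, which are also kidney genes. Pax2, a defining kidney factor, had no mutant read. Limma called 7 of the 9 lower with all libraries, 5 to 7 with any library left out and 0 without mutant libraries 1 and 2. Erythroid markers were called lower for 2 of 3 genes and were summed at 4.94, 9.47 and 0.560 RPKM in the mutants against 0.250 to 3.64, and limma called none of them without those libraries. Leaving out TrkC library 3, wild-type PV library 2 or 3, or mutant library 1 or 2 alone left 1 of the 2 erythroid calls. Endothelial markers were summed at 8.07, 12.2 and 4.13 RPKM in the mutants against 1.42 to 3.78. Of the 2 at 1 RPKM or more, Pecam1 was called lower, at 2.08 to 3.43 RPKM in the mutants and at most 1.63 in the joined libraries, and 5 further ones below that limit were called. Limma did not call Pecam1 without mutant libraries 1 and 2 (adjusted p = 0.24). The part of such cells in the other results was not tested.

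Nociceptor and glial lists were mixed. Among 14 genes that mark nociceptors, itch neurons and C fibres, 6 (42.9%) were called lower and 3 (21.4%) higher, beside 11.5% and 13.2% over all genes. The list's summed level was 116 to 209 RPKM in the joined libraries against 407, 292 and 491 RPKM. By limma 5 were lower and 3 higher, and 5 and 1 without mutant libraries 1 and 2. P2rx3, an ATP-gated channel, was at 237, 188 and 187 RPKM in the mutants against 14.6 to 51.1. Calca, the CGRP gene, split the mutants, with 99.1, 4.14 and 188 RPKM; limma did not call it with all libraries (adjusted p = 0.080), and over the fits with 1 library left out its adjusted p ran from 2.3e-06 to 0.22. In the opposite direction, Trpm8, the cold-sensing channel, was at 2.40 to 6.27 RPKM in the joined libraries with no mutant read, at least 148-fold higher, and the neuropeptide gene Adcyap1 was at 39.3 to 61.8 RPKM against 4.73, 6.23 and 8.01. Of 15 Schwann and satellite glia markers, 3 were called in each direction. By limma 3 were higher and 4 lower, against 1 and 2 without mutant library 1, 2 lower without mutant library 2, and 1 and 2 without both. Ngfr and Pmp22, which neurons also express, were at 867, 405 and 807 RPKM and 404, 300 and 421 RPKM in the mutants, against at most 228 and 124 RPKM in the joined libraries. They set the list's sum of 1041 to 1628 RPKM in the mutants against 511 to 890 RPKM. The myelin gene Mbp was higher in the joined groups, at 5.55 to 9.86 RPKM against 1.16, 1.46 and 1.66. The glial factor Sox10 was not called, at 0.417 to 3.60 RPKM against 1.94, 1.35 and 2.03.

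Immune and fibroblast markers had few genes at 1 RPKM or more. Muscle markers had none, so they do not enter the limma counts, and 2 muscle genes below that limit were called. Over all genes, 13.2% were called higher and 11.5% lower. Of 3 immune markers, Cd79a and Fcer1g were called higher and had no mutant read, with at most 4.79 and 2.46 RPKM in the joined libraries; Cd79a lost its limma call without mutant library 1 (adjusted p = 0.064). Of 4 fibroblast markers, 2 were called higher, Dcn and Ptgds, and Mgp was called lower. Without mutant libraries 1 and 2, the limma log2 difference went from 5.07 to 3.25 for Dcn and from -5.57 to -2.20 for Mgp. For the immune genes it went from 5.24 to 4.26 for Cd79a and from 4.25 to 3.27 for Fcer1g. Ptgds came from TrkC library 2 alone, at 71.4 RPKM against at most 1.60 in any other library, and limma did not call it (adjusted p = 0.44). Of 4 adrenal markers, Chgb, a granin of dense-core vesicles that sensory neurons also express, was called higher at 182 to 276 RPKM against 104, 74.4 and 111, and Th was called lower. By limma 2 were higher and 1 lower, with 1 higher without TrkC library 2, wild-type PV library 1 or 2 or mutant library 1 or 2, and 1 higher and none lower without mutant libraries 1 and 2.

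Transcription factors were called lower more often than higher. Of 55 factors of sensory neurons, 30 were lower and 13 higher, shares of 54.5% and 23.6% beside 11.5% and 13.2% over all genes, with a median of -0.80. Limma called 32 lower and 13 higher, and 22 and 6 without mutant libraries 1 and 2. Beside the T-box and Maf factors, Prdm12, a factor of nociceptors, was at 8.13, 6.85 and 16.3 RPKM in the mutants against 0.416 to 1.74. Etv5 was lower by 2.64 on the log2 scale in the authors' deposited table (adjusted p = 1.3e-21) while Etv1 was higher by 1.40 (adjusted p = 1.4e-10), although both are ETS factors of the same family. Etv5 stood at 37.3, 18.3 and 45.1 RPKM in the mutants and at 2.82 to 6.63 in the joined libraries. Isl2 and Pou4f1 were lower and Isl1 was not called, at 34.9 to 43.1 RPKM against 29.0, 37.7 and 24.0. The zinc finger genes Bcl11a and Tshz2 were higher, with Tshz2 at 56.9 to 73.7 RPKM against 8.13, 4.86 and 17.5 and Bcl11a at 1.16 to 3.05 RPKM against at most 0.108. Runx1, the Runx factor of nociceptors, was called lower at 0.213 to 0.797 RPKM against 1.34, 1.99 and 0.545, and Cbfb, the partner of all Runx factors, was not called.

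Among Hox genes, which encode positional transcription factors, every called gene of the HoxC cluster was higher and every called gene of the HoxB cluster was lower, a grouping made after the values were seen. Of 15 Hox genes of positions 5 to 9, 5 (33.3%) were higher and 6 (40.0%) lower, beside 13.2% and 11.5% over all genes. Limma called 6 in each direction, but 2 higher without mutant library 1 alone and 1 in each direction without mutant libraries 1 and 2. Hoxc8, Hoxc9 and Hoxc5 were the higher ones with the smallest p, with Hoxc8 at 15.1 to 22.0 RPKM against 2.89, 1.53 and 0.749. Hoxb8, Hoxb5 and Hoxb6 were the lower ones, with Hoxb8 at 19.4, 12.7 and 10.7 RPKM in the mutants against 0.486 to 2.48. Hoxc10, a gene of posterior segments, was at 8.18 to 17.8 RPKM in the joined libraries against 0.814, 0.129 and 1.27. Among positions 1 to 4, Hoxc4 was higher, and Hoxb3 and Hoxb4 were lower. Hoxc5 was not called by limma without mutant library 1, 2 or 3 or wild-type PV library 3, and Hoxb4 not without mutant library 1 or 2 or wild-type PV library 2. Without mutant libraries 1 and 2, Hoxb4 changed sign, from -2.26 to 0.42 on the log2 scale, and was not called (adjusted p = 0.87). Of positions 1 to 4, limma called 3 lower, 1 without wild-type PV library 2 or mutant library 1, and none without mutant libraries 1 and 2. The segmental level of the ganglia is not in the labels used here.

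Growth factor receptors were called lower more often than higher. Of 27, 12 (44.4%) were lower, beside 11.5% over all genes, and 4 (14.8%) were higher, near the 13.2% over all genes, with a median of -0.56. Limma called 12 lower, 11 to 14 with any library left out and 12 without mutant libraries 1 and 2. Its 4 higher calls became 1 without mutant library 1, 2 without any other library except TrkC library 2 or 3, and 2 without mutant libraries 1 and 2. The summed level of the list was 758 to 984 RPKM in the joined libraries against 1892, 1407 and 1911 RPKM in the mutants. A large part of the mutant sums came from Ngfr, whose values are given above with the glial markers. Ntrk3 was the higher receptor with the smallest p, and Ntrk2, Ngfr and Igf1r, the insulin-like growth factor receptor, were the lower ones. Igf1r stood at 15.5, 18.0 and 15.4 RPKM against 4.93 to 7.28. Among 26 factors of the FGF, BMP and neurotrophic families, 8 (30.8%) were called in each direction. Limma also called 8 in each, and 2 higher and 5 lower without mutant libraries 1 and 2. The secreted factor Fgf9 was at 10.5 to 24.6 RPKM in the joined libraries against 1.01, 0.655 and 0.757, and Bmp5 was higher as well. Ntf3, the ligand of TrkC, was at 14.7, 14.2 and 9.17 RPKM in the mutants against 0.166 to 1.65. Igf1 was at 52.4, 46 and 69.9 RPKM in the mutants, 12.3, 7.86 and 11.4 RPKM in the wild-type PV libraries and 6.43, 3.44 and 4.14 RPKM in the TrkC libraries. Bdnf differed less, at 8.97, 10.4 and 7.73 RPKM against 4.22 to 5.39.

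Wnt genes were called in both directions. Of 34, 6 (17.6%) were higher, near the 13.2% over all genes, and 10 (29.4%) were lower, beside 11.5%. Limma called 6 and 8, and 4 and 5 without mutant libraries 1 and 2. Beside Wls, the ligand gene Wnt7a was at 8.34 to 12.7 RPKM in the joined libraries against 0, 0 and 0.279, and the secreted inhibitor gene Frzb was at 6.60 to 11.4 RPKM against 0.293, 0.450 and 0.380. Lower were Dkk3, a member of the Dickkopf family, at 26.6, 15.1 and 28.4 RPKM in the mutants against 1.92 to 5.31, the ligand gene Wnt5a, and Axin2, a target gene of Wnt signalling. Axin2 was at 3.75, 2.47 and 3.41 RPKM in the mutants against 0.332 to 0.906.

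Heparan sulfate genes gave a higher sum from few genes. Of 29 enzymes and proteoglycans, 4 (13.8%) were higher, near the share over all genes, and 10 (34.5%) lower, with a median of -0.20, yet the summed level was 459 to 519 RPKM in the joined libraries against 300, 320 and 298 RPKM. Limma called 4 and 9, and 4 and 4 without mutant libraries 1 and 2. Ndst4 and Hs3st2 are described above, and Sulf2, which removes sulfate groups, was at 116 to 165 RPKM against 11.7, 10.5 and 19.0. Hs6st1, a sulfotransferase, was lower, with 10.5 to 15.6 RPKM against 37.9, 26.6 and 28.9. The lower core protein gene Gpc5 and the enzyme gene Hs3st1 had no mutant library above 12.0 RPKM.

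Guidance genes were called in both directions. Of 28 semaphorins and plexins, 11 (39.3%) were higher and 8 (28.6%) lower, beside 13.2% and 11.5% over all genes. Limma called the same numbers, and 4 and 5 without mutant libraries 1 and 2. Plxna2 was at 75.6 to 109 RPKM in the joined libraries against 13.7, 16.1 and 34.3, so that Plxna2 and Plxnd1 were higher while Plxna4 was lower. The ligand Sema3a was higher and its receptor Nrp1 was lower, with Nrp1 at 34.7, 46.4 and 35.9 RPKM in the mutants against 2.45 to 11.1. Of 27 other guidance genes, 9 (33.3%) were higher and 4 (14.8%) lower, the latter near the share over all genes. By limma 11 were higher and 5 lower, with 6 higher without mutant library 1, 8 lower without mutant library 3, and 3 and 2 without mutant libraries 1 and 2. Dcc, a netrin receptor, was at 7.17 to 10.3 RPKM against 0.764, 1.26 and 0.715. The netrin receptor Unc5a was higher as well and Unc5c was lower, at 13.3 to 17.4 RPKM in the mutants against 6.64 to 9.45.

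Among adhesion genes, higher calls outnumbered lower ones, with lower shares nearer to that over all genes. Of 25 cadherins and protocadherins, 11 (44.0%) were higher and 3 (12.0%) lower, and of 51 synaptic and immunoglobulin-domain adhesion genes, 21 (41.2%) were higher and 9 (17.6%) lower, beside 13.2% and 11.5% over all genes. By limma 11 cadherins were higher and 5 lower, with 3 lower without wild-type PV library 2 or mutant library 2, and 6 and 4 without mutant libraries 1 and 2. The synaptic and immunoglobulin-domain counts were 22 and 9 by limma, and 13 and 7 without mutant libraries 1 and 2. Cdh8 was at 20.1 to 31.8 RPKM in the joined libraries against 2.14, 2.58 and 1.05, Cdh20 at 4.99 to 6.99 RPKM against at most 0.418, and Cdh7 at 7.87 to 16.3 RPKM against at most 1.56. Pcdh17 was lower, at 20.9, 17.1 and 20.2 RPKM in the mutants against 5.10 to 9.26. Vstm2a, from the same family as Vstm2b, was at 8.11 to 15.6 RPKM against 1.57, 1.97 and 2.87. Negr1, an immunoglobulin-domain adhesion gene, was lower, at 59.4, 63.6 and 50.4 RPKM in the mutants against 8.07 to 16.4.

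Ion channel genes were called in both directions. Of 18 calcium channel genes, 9 (50%) were lower and 3 (16.7%) higher, beside 11.5% and 13.2% over all genes. Limma called the same numbers, and 6 and 1 without mutant libraries 1 and 2. Of the T-type genes, Cacna1i was higher and Cacna1h lower, and the auxiliary subunit Cacnb3 stood at 62.1, 53.5 and 64.2 RPKM in the mutants against 20.4 to 31.2. Of 30 potassium channel genes, 10 (33.3%) were higher and 7 (23.3%) lower, with 4 and 6 by limma without mutant libraries 1 and 2. Kcns1, a silent subunit, was at 12.6 to 19.0 RPKM in the joined libraries against 1.44, 0.727 and 1.96, and Kcnc1, the fast channel Kv3.1, at 8.69 to 13.9 RPKM against 3.31, 3.90 and 3.25. Of 16 sodium and HCN channel genes, 4 (25.0%) were higher and 2 (12.5%) lower, the latter near the share over all genes. The 2 lower calls by limma became 4 without mutant library 1, 1 without TrkC library 1 or 3 or mutant library 3, and none without mutant libraries 1 and 2, where 2 were higher. Scn1a, which encodes Nav1.1, was at 75.6 to 98.5 RPKM against 32.0, 32.7 and 28.7. Scn10a, the Nav1.8 gene of nociceptors, was lower at 0.731 to 2.64 RPKM against 5.09, 6.33 and 5.49.

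Of 19 mechanotransduction and TRP channel genes, 6 (31.6%) were lower and 3 (15.8%) higher, the latter near the share over all genes. Limma called 5 and 4, and 6 and 1 without mutant libraries 1 and 2. Fam38b, an older name of Piezo2, the main touch channel, was lower by 0.90 on the log2 scale in the authors' deposited table (adjusted p = 1.1e-09), and its reads per library were not recovered. The acid-sensing channel genes were opposed. Accn2 (Asic1) was at 55.2 to 81.6 RPKM in the joined libraries against 19.3 to 28.2, and Accn3 (Asic3) was at 29.3 to 47.3 RPKM against 69.7, 64.4 and 72.0. Of 17 glutamate receptor genes, 7 (41.2%) were higher and 2 (11.8%) lower, the latter near the share over all genes, with a median of 0.47. By limma 8 were higher and 2 lower, with 1 lower without mutant library 1 or 2, and 3 and 2 without both. Beside Grm3, Grm8 was at 7.83 to 12.3 RPKM against 2.52, 2.34 and 5.42, and the kainate receptor gene Grik2 at 9.68 to 12.4 RPKM against 1.95, 3.59 and 5.43, while the kainate receptor gene Grik3 was lower. Of 26 GABA, nicotinic, serotonin and ATP receptor genes, 7 (26.9%) were lower and 4 (15.4%) higher, the latter near the share over all genes. By limma 9 were lower and 6 higher, with 3 higher without mutant library 1, and 6 and 2 without mutant libraries 1 and 2. Htr3a and Htr3b, the subunits of the serotonin-gated channel, were both lower, at 29.5, 23.5 and 69.0 RPKM and 17.4, 26.5 and 22.3 RPKM in the mutants against at most 6.99 and 3.35 RPKM. The nicotinic subunit gene Chrna3 was higher, with at most 0.715 RPKM in the mutants and 1.22 to 4.59 in the joined libraries.

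**Figure D4:**
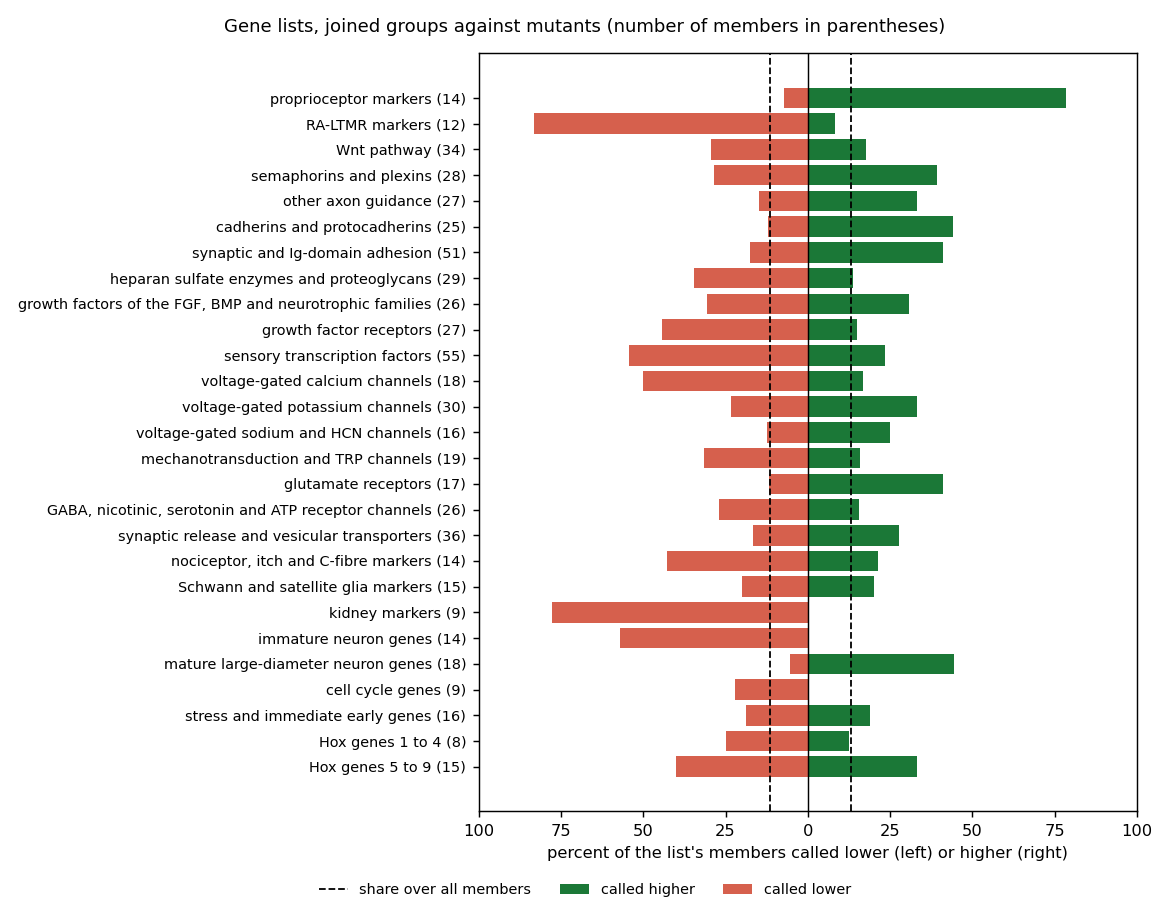
Share of each gene list called higher (right) or lower (left) in the joined groups, in percent of the list's genes at 1 RPKM or more, whose number stands in parentheses; lists under 8 such genes are not drawn. Dashed lines mark the shares over all 13016 genes, 13.2% higher and 11.5% lower, and the proprioceptor and RA-LTMR marker lists extend farthest to the right and left. The lists were chosen with earlier results of these data known.

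Lists tied to maturity are given beside the age difference between the groups. Of 14 genes of immature neurons, 8 (57.1%) were lower and none was higher, beside 11.5% and 13.2% over all genes. Their median was -0.56, and their sum was 1335 to 1786 RPKM in the joined libraries against 2389, 2450 and 2297 RPKM. Limma called 9 of them lower with all libraries, 7 to 9 with any library left out and 2 without mutant libraries 1 and 2. Cd24a, a surface protein of young neurons, was at 264, 253 and 323 RPKM in the mutants against 21.2 to 67.2, and the growth-cone protein gene Gap43 was at 339, 310 and 280 RPKM against 115 to 260. Of 18 genes of mature large-diameter neurons, 8 (44.4%) were higher and 1 lower, beside 13.2% and 11.5% over all genes. Reads were recovered for 13 of the 18, and the sum and the limma counts cover only these. Their sum overlapped, at 859 to 1471 RPKM in the joined libraries against 1202, 870 and 1311 RPKM. Limma called 6 higher and 1 lower, 2 lower without TrkC library 2 or mutant library 2, and 2 higher and none lower without mutant libraries 1 and 2. Without mutant library 2 alone, limma called 4 higher. Nefh, the heavy neurofilament gene, was not called, at 229 to 575 RPKM against 477, 347 and 536. Of 36 synaptic release genes, 10 (27.8%) were higher and 6 (16.7%) lower, beside 13.2% and 11.5% over all genes, with the same numbers by limma. The vesicle protein gene Rab3c was at 239 to 370 RPKM against 90.4, 75.2 and 75.6. Of 9 cell cycle genes, 2 (22.2%) were lower, beside 11.5% over all genes. These were Aurkb and Ccnb2, each at most 3.69 RPKM in any library, and limma did not call Ccnb2 (adjusted p = 0.10). It called 3 of the 9 lower, and 1 without mutant library 1 or without mutant libraries 1 and 2. Of 16 stress and immediate early genes, 3 (18.8%) were called in each direction, beside 13.2% higher and 11.5% lower over all genes. By limma 4 were higher and 2 lower, with 2 higher without mutant library 1, and 1 in each direction without mutant libraries 1 and 2. How far age takes part in these lists was not tested.

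No called gene had its joined groups on opposite sides of the mutants, in 1718 genes called higher and 1492 called lower. A call on the joined value itself favours this outcome, so it does not show that the groups agree. The single comparisons of each joined group with the mutants share the mutant samples, so their values stand side by side and are not separate evidence. Between wild-type PV and TrkC neurons themselves, 510 of the 13016 genes (3.92%) were called in the authors' deposited table. The rate was 3.96% (68 genes) among those called higher and 5.23% (78 genes) among those called lower. In the first set 28 were higher in wild-type PV and 40 in TrkC neurons, and in the second 45 and 33.

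For a few genes the joined value covered unlike groups. E430016F16Rik (chromosome 7, 78581066 to 78718220, GRCm38.p6) was at 32.0, 34.2 and 47.0 RPKM in the TrkC libraries. It was at 0.858, 0.929 and 1.24 RPKM in the wild-type PV libraries, near the mutants at 0.0976, 0.165 and 0.945. The gene starts next to Ntrk3, which ends at 78581034, the locus whose control elements the TrkC-GFP transgene carries. Whether the transgene takes part in this signal was not tested. Fam19a4 (Tafa4) was likewise carried by TrkC neurons, at 14.4, 5.0 and 13.1 RPKM against 1.89 to 2.89 in wild-type PV and 0.678 to 2.74 in mutant libraries, and lost its limma call without mutant library 1 (adjusted p = 0.060). Itga2 was highest in wild-type PV neurons, at 32.9, 31.0 and 32.3 RPKM, with 14.7, 9.63 and 6.46 in TrkC and 1.48, 3.27 and 1.21 in mutant libraries.

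Among called-lower genes, Layn and F2r had wild-type PV neurons between the others. Layn, the hyaluronan receptor gene, was at 90.7, 113 and 119 RPKM in the mutants, 25.4, 13.5 and 26.9 in wild-type PV and 5.36, 4.09 and 3.60 in TrkC libraries. F2r, the thrombin receptor gene, was at 97.6, 45.4 and 168 RPKM, then 25.3, 6.27 and 18.4, then 1.89, 1.76 and 1.40 in the same order. In neither gene did 2 of the 3 groups overlap. The authors' deposited table gives log2 fold changes of wild-type PV over TrkC neurons of 2.31 for Layn (adjusted p = 2.6e-13) and 3.28 for F2r (adjusted p = 2.9e-13).

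**Figure D5:**
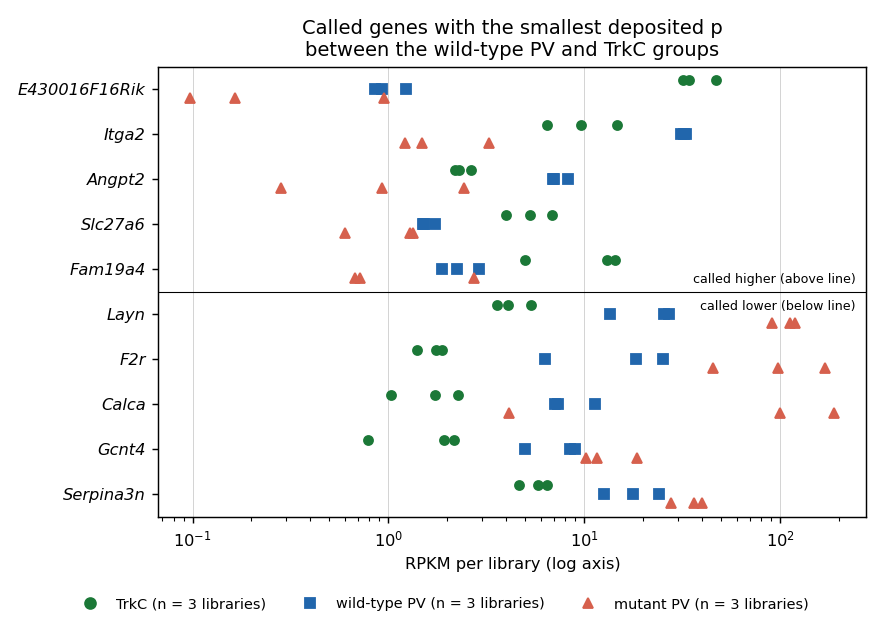
RPKM in each library (log axis) for the 5 genes called higher (above the line) and the 5 called lower (below it) with the smallest deposited p between wild-type PV and TrkC neurons; each symbol is 1 library. E430016F16Rik sits at 32.0 to 47.0 RPKM in the TrkC libraries and at most 1.24 RPKM elsewhere, and Layn steps from mutant through wild-type PV to TrkC.

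Genes called with no read on the low side were rare. Of the called-higher genes, 29 had no mutant read, and 25 of these were read in all 6 joined libraries. Beside Vstm2b, Trpm8 and Chad, they included Myom3, a muscle M-band protein gene, at least 140-fold higher, Adra1d, an adrenergic receptor gene, at least 56.2-fold higher, and Galr1, a galanin receptor gene, at 1.48 to 4.13 RPKM. Bhmt2, a methyltransferase gene, was the only one of the 16 called-lower genes without a joined read that was read in all 3 mutant libraries, at 1.12, 1.06 and 1.38 RPKM. At the limit of 1 RPKM, the called genes just inside were Hmcn1 and Fam186b and those just outside were F11r and Fam46a. Hmcn1 and Fam186b lost their limma calls without mutant library 1 (adjusted p = 0.11 and 0.072). A further 655 genes below the limit were called, 314 higher and 341 lower.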

How the data were processed

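Per the labels' protocols, RNA of sorted neurons was amplified, poly-A selected and sequenced single-end; the authors' genome build, mm10, and their use of edgeR are given by the submitters' processing notes. The sources used here name neither the authors' counting program nor the kind of test. The values are the authors' deposited RPKM per group, log2 fold changes and p-values with their adjusted p, over 23038 genes. The deposited RPKM values are per group, so values per library were derived from them. Each group RPKM equalled the mean over 3 libraries of (reads + 1) scaled to length and library total. Each gene's length and its reads in 9 libraries were taken as the whole numbers that give the deposited values to their last printed digit. For 1621 genes this alone did not settle the numbers. Their length was held near that given by the deposited mean log2 CPM, and solutions with libraries of a group far apart were set aside. In all, 22900 genes (99.4%) were solved and 138 were not. The solved genes held 83.0% to 88.3% of a library's reads. On data simulated at the same totals from the solved genes and their lengths, 22894 of 22900 were solved and 0 wrongly. The 138 unsolved genes were not simulated, so this does not check them. Simulated libraries of a group shared the same mean for each gene, so genes with a library far apart were not checked either. Over 8543 genes, the log2 ratio from these reads differed from the deposited log2 fold change by a median of 0.0049.

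Calls use the authors' deposited adjusted p under 0.05. The check was limma-voom (limma 3.58.1, R 4.3.3) on the recovered reads, with 3 groups in the fit, at least 10 reads over 9 libraries and Benjamini-Hochberg adjustment over all genes fitted. In simulated data of 15921 genes for this comparison, it called 78 of 100 genes changed by 1 and 100 of 100 changed by 2 on the log2 scale, and 13 of 15721 unchanged genes. The simulation gave all genes and libraries the same dispersion and changed only genes with many reads. These numbers are therefore not error rates for the real libraries. A fold against no reads is a bound from 3 reads over the group.

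Genes were named by rule: the 12 smallest p in each direction, the genes that define the groups, up to 3 per list and direction, genes without reads on one side, those most unlike between the joined groups, and those at the RPKM limit. Other list genes were chosen after their values were seen: Etv1, Ret, Mafa, Etv5, Isl1, Isl2, Pou4f1, Runx1, Cbfb, Sox10, Pax2, Gap43 and Nefh. The members and lists were chosen with earlier results of these data known. Alternatives covered thresholds, filters, scaling, single groups and left-out libraries. Some genes that the rule names are not reported here.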

Additional observations from a re-analysis of the deposited data

Results flagged for a closer look

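Among the 27 genes screened, Maf stood out for 1 of the 6 joined libraries, wild-type PV library 3, at 7.26 RPKM, while the other 5 lay between 4.63 and 5.61 RPKM. The gap to the next library was large for the range of 6 values, a pattern that chance gives in about 1 in 20 groups. All 3 mutant libraries were still above it.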

How the results depend on the processing

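The counts of 1718 genes called higher and 1492 called lower stayed within 1.5 times under an adjusted p under 0.01, no RPKM limit, an RPKM limit of 5, and limma on the recovered reads with 3 groups, with the joined groups as 1, or with median-ratio scaling. With at least a 2-fold change required they were 829 and 847, and with a call in each single-group comparison required as well, 947 and 754, since both rules only remove genes. Limma called 2127 higher and 1785 lower; leaving out any library gave 1686 to 2034 and 1432 to 1941, and leaving out mutant libraries 1 and 2, chosen after seeing the data, gave 644 and 802. Median-ratio scaling moved the median over all genes from 0.032 to -4.8e-05 on the log2 scale. The median of 27 lists moved by more than its limit in 2 under a geometric mean, 7 without the RPKM limit and 4 with a pseudocount of 1. No named gene changed direction in a single-group comparison, in limma with all libraries or with 1 library left out. Without mutant libraries 1 and 2, F11r went from -1.69 to 2.10, Hoxb4 from -2.26 to 0.42 and Grik5 from -0.67 to 0.018 on the log2 scale, none of them called there. Of 178 named genes, 7 to 22 lost their limma call when 1 library was left out, the most without mutant library 1. No paired analysis was possible because libraries could not be tied to replicate numbers. The edgeR quasi-likelihood and DESeq2 fits were not run. The shallowest library, mutant library 3 with 4510352 reads, is the only mutant one in the counts without mutant libraries 1 and 2.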
